A study of Mus musculus with 23 samples.

Results

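The 34 genes described here encode peroxins (the proteins that build peroxisomes), transporters and channels of the peroxisomal membrane, and peroxisomal enzymes outside the core of fatty acid beta-oxidation. They were taken by name from the gene counts of mouse liver, and all 34 were among the 24062 genes listed and the 14196 genes with enough reads to test. The livers came from 23 mice of the mixed strain B6/129 in 4 groups. WT mice received saline (7 mice, 29 to 45 weeks old) or L-AC (6 mice, 28 to 44 weeks), and mice labelled knockout (KO) for Ehhadh received saline (5 mice, 31 to 44 weeks) or L-AC (5 mice, 28 to 38 weeks). The labels name the agent only as L-AC and state neither its dose and duration nor which part of Ehhadh is removed. Ehhadh encodes the peroxisomal L-bifunctional enzyme, which carries out the middle steps of peroxisomal beta-oxidation. Each library is 1 liver, so p-values measure the spread between these animals.

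Peroxisomes are small organelles, abundant in hepatocytes, that import folded enzymes through a receptor cycle and insert their membrane proteins by a separate route. They shorten very long-chain, branched and dicarboxylic fatty acids, destroy the hydrogen peroxide this makes, detoxify glyoxylate and begin the synthesis of ether lipids. In rodent liver, many peroxisomal genes are targets of the nuclear receptor PPARA, which fatty acids and fibrate drugs activate and which binds DR1 elements, direct repeats of a hexamer separated by a single base.

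The libraries held 24521896 to 48095959 counted reads. Ehhadh separated the genotypes under both treatments, with 635 to 1635 CPM (counts scaled to library size, the unit used throughout) in WT saline against 90.9 to 253 in KO saline, and 10260 to 14650 against 1421 to 2144 CPM under L-AC. Reads over the gene thus remained in KO livers and rose with L-AC there too (log2 fold change 3.55 ± 0.27 SE). In a principal component analysis of all 14196 tested genes, the first component held 55.2% of the variance and the treatments did not meet on it. Saline livers scored -50.8 to -28.1 there and L-AC livers 26.4 to 68.5. The same was seen with the 34 genes alone, where the first component held 78.7% of the variance. On it, scores of the 12 saline livers were -3.14 to -1.72 and those of the 11 L-AC livers 1.13 to 3.96. On the component of the 34 genes, WT L-AC replicate 3 had the lowest score of the treated livers. Of its group it came nearest to saline in 14 of the 27 members that differed with L-AC in WT. Of the WT saline livers, replicate 1 came nearest to the treated group in 9 of the 27, while replicate 7 had the score nearest to it over the 34 genes (-1.72). Hepatocyte markers moved with L-AC: 7 of 10 were lower in WT (median log2 fold change -0.67) and 9 of 10 in KO (median -0.69). Their summed level went from 78600 to 94040 CPM on saline down to 52300 to 68830 CPM on L-AC in WT, and from 85360 to 95210 down to 39200 to 69910 CPM in KO, and none was at 0. Of 8 markers of Kupffer cells and macrophages, 1 was higher and 5 lower in WT, and 1 higher and 4 lower in KO, none at 0. Their sum was 67.8 to 236 CPM on saline and 52.2 to 98.4 CPM on L-AC in WT, and 86.9 to 185 and 44.4 to 155 CPM in KO. Red cell markers had 1 of 5 lower in each genotype. Of the 4 tested markers of T, B and NK cells, 1 was higher and 3 lower in WT and 1 higher and 1 lower in KO, with a sum over the list of at most 7.04 CPM in any library. In WT, 3 of 8 stellate cell markers, 1 of 8 endothelial markers and 2 of 3 tested genes of the adipocyte list were higher. In the same mice 1 stellate, 1 endothelial and 1 of 5 tested bile duct markers were lower. In KO those counts were 1, 0 and 2 higher, and 1, 2 and 1 lower. The adipocyte list includes the adiponectin receptor gene Adipor2, so its counts are not specific to adipocytes. Only 3 of 6 neutrophil and 1 of 5 kidney tubule markers were tested, and edgeR called 0 of them in either genotype. At an unadjusted p under 0.05 there were 0 in WT and 1 neutrophil marker in KO. Beside these marker counts, edgeR called 53.3% of all tested genes in WT and 48.8% in KO. In whole liver, fewer cells of a type and less RNA per cell cannot be told apart, and the part of these shifts in the results was not tested.

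The 250 bases upstream of the RefSeq start of 3 members are shown because these genes stand for the patterns that follow: Pex11a rose most, Hao1 fell most, and Cat fell and was the only member whose window matched the DR1 motif searched. The sequences are from RefSeq on GRCm38.p6, 5′ to 3′ on the minus strand on which each gene lies, at chr7:79743132-79743381 (Pex11a), chr2:134554353-134554602 (Hao1) and chr2:103485154-103485403 (Cat). Capitals mark the match in Cat, which begins 204 bases upstream of the start.
Pex11a: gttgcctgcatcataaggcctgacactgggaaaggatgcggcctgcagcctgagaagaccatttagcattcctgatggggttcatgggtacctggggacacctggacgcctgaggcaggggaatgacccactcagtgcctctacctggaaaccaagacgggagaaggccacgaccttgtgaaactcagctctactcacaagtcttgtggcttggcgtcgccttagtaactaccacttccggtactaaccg
Hao1: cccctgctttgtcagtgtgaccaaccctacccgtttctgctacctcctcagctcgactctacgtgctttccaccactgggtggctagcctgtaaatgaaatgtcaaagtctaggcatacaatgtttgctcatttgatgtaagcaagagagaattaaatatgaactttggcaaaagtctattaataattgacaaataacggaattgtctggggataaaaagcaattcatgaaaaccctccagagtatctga
Cat: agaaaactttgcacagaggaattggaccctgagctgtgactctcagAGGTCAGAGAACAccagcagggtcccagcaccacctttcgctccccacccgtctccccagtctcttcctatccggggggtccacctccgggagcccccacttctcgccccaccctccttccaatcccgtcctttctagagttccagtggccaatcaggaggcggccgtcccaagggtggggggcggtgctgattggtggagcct
Base composition differed between them, with 55.6% G and C and 8 CpG in Pex11a, 41.6% and 4 in Hao1, and 62.0% and 9 in Cat. The motif, AGGTCA followed by any base and AGGTCA again, was searched on both strands in windows of 250 bases before to 50 bases after each start, with at most 2 mismatches outside the middle base. It was found in 1 of the 36 windows of the 30 members with a window (2.78%) and in 1268 of 32851 windows of all genes (3.86%). An exact match occurred in 0 of the 36 and in 13 of the 32851 (0.0396%). Pex2, Pex19, Pxmp2 and Abcd2 have no window in the table. A match is a description of letters, and the absence of a match in these windows says nothing of binding elsewhere.

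L-AC moved these genes in both directions. In WT liver 15 of the 34 were higher, 12 were lower and 7 did not pass the test, where a gene was called at a Benjamini-Hochberg adjusted p under 0.05 over all genes tested (edgeR quasi-likelihood test). That response was broad: 53.3% of all tested genes were called in WT, 26.6% higher and 26.7% lower. In KO liver 14 members were higher, 9 lower and 11 not called, beside 48.8% of all genes (25.2% higher and 23.6% lower). The median log2 fold change of the 34 was -0.02 in WT and 0.11 in KO, and that of all genes -0.01 in both. Scaling all libraries by total counts alone moved the median of all genes in the KO comparison from -0.01 to 0.11 and the share of its calls that were higher from 51.6% to 63.6%, and the members then split into 15 higher and 8 lower. Saline and L-AC livers did not overlap in 18 members in WT (11 higher, 7 lower), beside 24.1% of all genes, and in 19 in KO (11 higher, 8 lower), beside 32.6%. The WT and KO comparisons rest on separate animals: 14 members were higher in both, 8 lower in both, 5 called in WT alone, 1 in KO alone and 6 in neither.

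**Figure D1:**
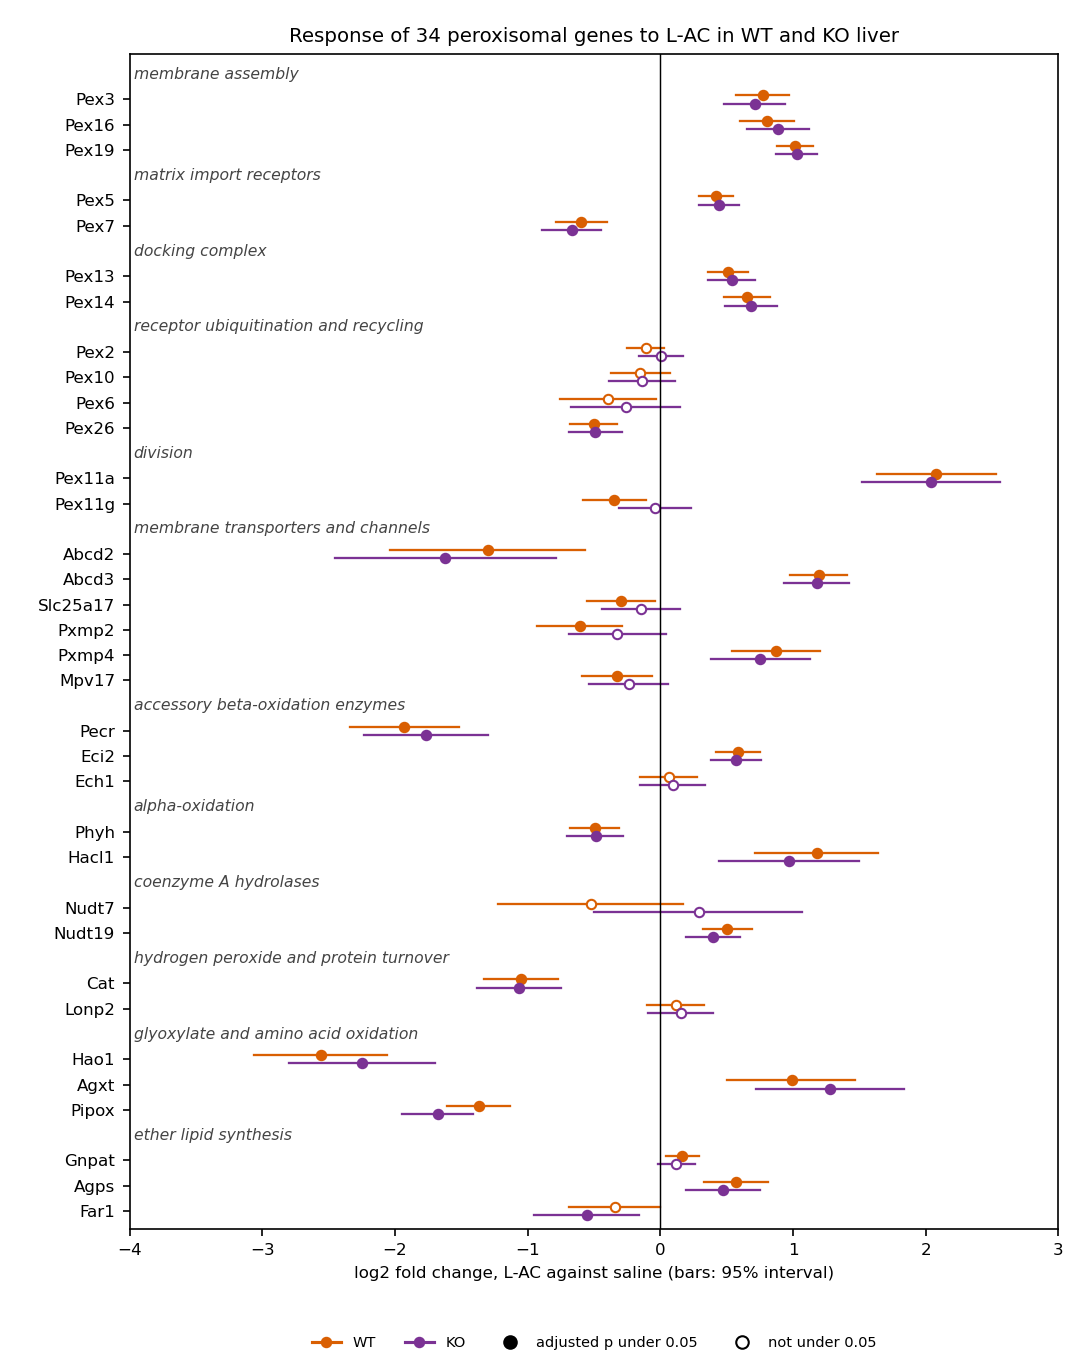
Log2 fold change of each of the 34 genes between L-AC and saline (horizontal axis) in WT (orange, 6 against 7 mice) and KO (purple, 5 against 5 mice), grouped by role. Bars are 95% intervals and filled points have an adjusted p under 0.05. Pex11a lies farthest to the right at 2.08 in WT and 2.04 in KO, and Hao1 farthest to the left at -2.56 and -2.25.

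The genes for membrane assembly rose together, 3 of 3 in each genotype. Pex19, the soluble receptor that carries newly made membrane proteins to the organelle (chromosome 1, 172126755 to 172136497, plus strand of mm10), was at 148 to 172 CPM (median 163) in WT saline and 298 to 359 CPM (median 328) in WT L-AC. KO saline livers had 145, 179.8, 166, 147 and 154 CPM and KO L-AC livers 308, 326, 308, 316 and 357 CPM. Every L-AC liver was above every saline liver in both genotypes, a 2.02-fold rise in WT (log2 change 1.01 ± 0.065 SE with adjusted p = 7.30e-11) and 2.04-fold in KO (1.03 ± 0.075 with adjusted p = 7.90e-10). This was the member with the smallest p in WT, although others moved farther. Pex3, the membrane anchor on which Pex19 docks, rose by 0.77 ± 0.097 SE in WT and 0.71 ± 0.11 in KO on the log2 scale, from 27.9 ± 3.78 CPM (SD, n = 7) to 47.7 ± 6.48 CPM (SD, n = 6) in WT. Its exons overlap those of Adat2 on the opposite strand over 236 of 2405 bases, and counting ignored strand, so reads there cannot be told apart. Pex16, which recruits Pex3 to membranes, rose by 0.80 ± 0.099 SE in WT and 0.89 ± 0.11 in KO. For both genes the treated and untreated livers did not overlap in either genotype.

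Matrix import split by receptor. Pex5, the cycling receptor for the C-terminal targeting signal that most peroxisomal enzymes carry (chromosome 6, 124396816 to 124415067, minus strand), was at 154 to 206 CPM (median 187) in WT saline and 233 to 264 CPM (median 252) in WT L-AC. In KO mice the saline livers had 185, 189.7, 179, 188 and 189.7 CPM and the L-AC livers 254, 255, 247, 272 and 237 CPM. The groups stood apart in both genotypes, with a rise of 1.34-fold in WT (log2 change 0.42 ± 0.064 SE with adjusted p = 1.02e-05) and 1.36-fold in KO (0.44 ± 0.073 with adjusted p = 3.45e-05). Pex7, the receptor for the less common N-terminal signal, went the other way (chromosome 10, 19860090 to 19907674, minus strand). Its level was 63.0 to 89.7 CPM (median 70.3) in WT saline and 45.5 to 57.2 CPM (median 48.4) in WT L-AC. KO saline gave 80.5, 78.8, 72.8, 83.1 and 77.7 CPM, and KO L-AC gave 42.0, 60.4, 42.3, 54.6 and 47.8 CPM. All L-AC livers lay below all saline livers of their genotype, a fall of 1.51-fold in WT (log2 change -0.60 ± 0.095 SE with adjusted p = 1.70e-05) and 1.59-fold in KO (-0.67 ± 0.11 with adjusted p = 2.40e-05). Among the members, Phyh and Agps encode enzymes known to use Pex7, and their values are given with their pathways.

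Both genes of the docking complex, where loaded receptors meet the membrane, rose. Pex14 (chromosome 4, 148960535 to 149099812, minus strand) was at 66.9 to 82.2 CPM (median 74.6) in WT saline and 97.9 to 145 CPM (median 110.1) in WT L-AC. The KO saline livers had 73.6, 74.6, 72.8, 77.2 and 65.5 CPM against 104, 137, 107, 122 and 114 CPM in KO L-AC. Treated and untreated livers stood apart in both genotypes (log2 change 0.65 ± 0.084 SE with adjusted p = 1.12e-06 in WT, and 0.68 ± 0.096 with adjusted p = 4.62e-06 in KO). Pex13, its partner in the pore, rose by 0.51 ± 0.074 SE in WT and 0.54 ± 0.084 in KO, also with no overlap. Its exons share 2 bases with Pus10 on the opposite strand.

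The genes that ubiquitinate and recycle the receptor did not follow the docking genes: 0 of 4 rose in either genotype and 1 fell. Pex26, the membrane anchor of the motor that pulls Pex5 back to the cytosol (chromosome 6, 121183667 to 121196185, plus strand), was at 32.4 to 43.9 CPM (median 39.7) in WT saline and 24 to 30.6 CPM (median 28.5) in WT L-AC. KO livers had 41.0, 42.7, 42.5, 40.3 and 50.1 CPM on saline and 27.4, 28.9, 33.1, 36.7 and 27.8 CPM on L-AC. No treated liver reached the untreated range of its genotype, and Pex26 was 1.42-fold lower in WT (log2 change -0.50 ± 0.085 SE with adjusted p = 3.75e-05) and 1.41-fold lower in KO (-0.49 ± 0.096 with adjusted p = 2.17e-04). Pex6, an ATPase of that motor, had log2 fold changes of -0.40 ± 0.18 SE in WT (adjusted p = 0.0638) and -0.26 ± 0.20 in KO (adjusted p = 0.29), and its L-AC livers ranged from 80.8 to 151 CPM in WT and from 63.4 to 169.7 in KO. The RING ubiquitin ligases Pex2 (-0.11 in WT, 0.00 in KO) and Pex10 (-0.15 and -0.14) did not pass the test. Pex10 was also low, at 5.84 ± 0.515 CPM (SD, n = 7) in WT saline.

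Division held the largest rise of the 34. Pex11a, which elongates the peroxisomal membrane before fission and is the inducible form of its family (chromosome 7, 79737264 to 79743025, minus strand), was at 31.1 to 143 CPM (median 95.2) in WT saline and 328 to 418 CPM (median 382) in WT L-AC. The KO saline livers had 84.1, 86.8, 103, 92.0 and 96.2 CPM and the KO L-AC livers 323, 333, 412, 395 and 435 CPM. WT saline livers were spread widely, with a coefficient of variation of 43.4%, yet the highest of them lay below the lowest treated liver. The rise was 4.22-fold in WT (log2 change 2.08 ± 0.22 SE with adjusted p = 7.52e-08) and 4.11-fold in KO (2.04 ± 0.25 with adjusted p = 9.36e-07). Pex11g, a relative with a role in the same process, was lower in WT (log2 change -0.35 ± 0.11 SE with adjusted p = 0.0139) with overlapping groups, and was not called in KO (-0.04 ± 0.13 with adjusted p = 0.831). The WT call was lost without WT saline replicate 1 and WT L-AC replicate 3 together (adjusted p = 0.0657). The difference between the genotypes in that response was 0.31 with a 95% interval of -0.05 to 0.67 and did not pass the test.

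**Figure D2:**
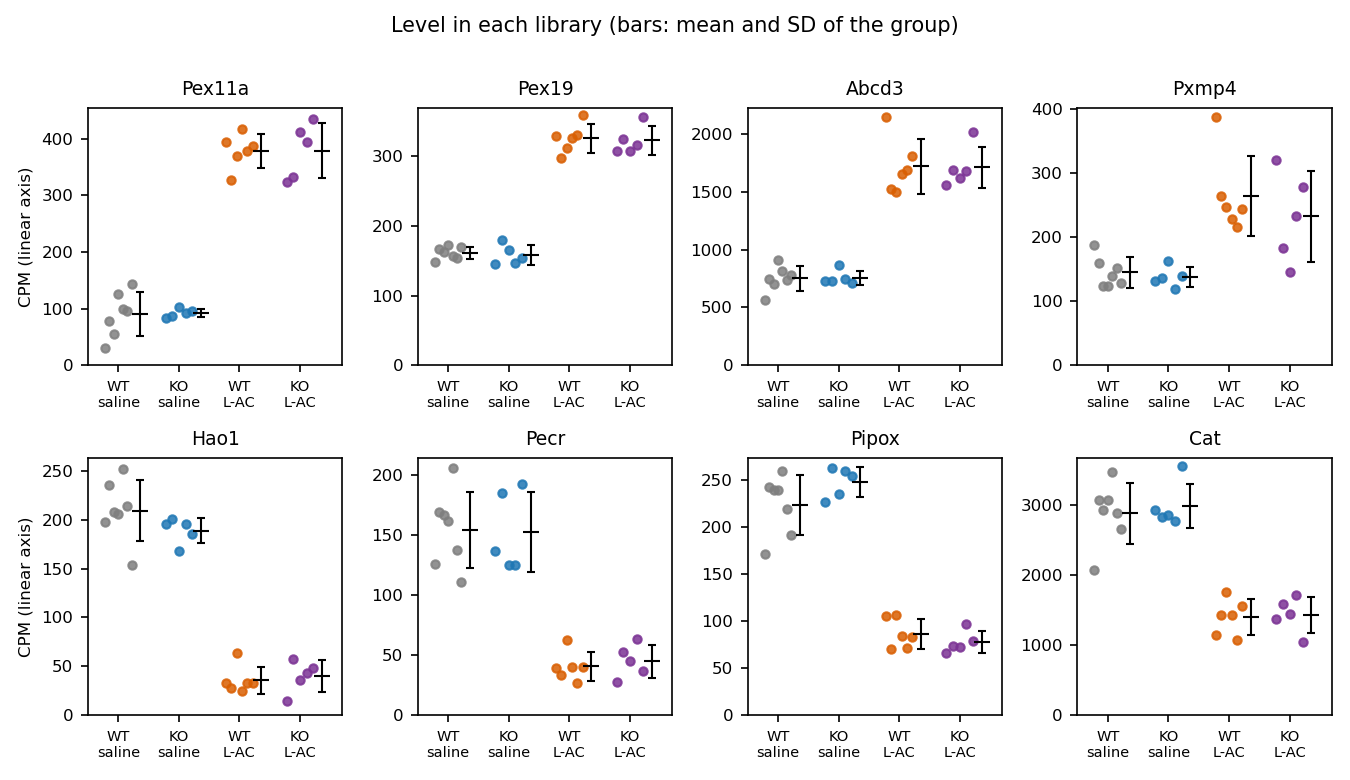
Level in CPM (vertical axes, linear from 0) of 8 members in each library, as points for the 4 groups, with the mean and SD beside each group. Pex11a, Pex19 and Abcd3 are above their saline groups in all 11 L-AC livers, Hao1, Pecr, Pipox and Cat are below theirs, and Pxmp4 overlaps in KO.

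The 6 transporters and channels split by gene. Abcd3, an ATP-driven importer of long-chain, branched and dicarboxylic acyl-CoA and a main protein of the peroxisomal membrane (chromosome 3, 121758910 to 121815215, minus strand), was at 562 to 914 CPM (median 750) in WT saline and 1503 to 2148 CPM (median 1675) in WT L-AC. KO livers had 732, 731, 866, 743 and 712 CPM on saline and 1558, 1688, 1618, 1678 and 2018 CPM on L-AC. The groups were far apart in both genotypes, with 2.29-fold in WT (log2 change 1.19 ± 0.10 SE with adjusted p = 4.75e-09) and 2.26-fold in KO (1.18 ± 0.12 with adjusted p = 5.88e-08). Abcd2, a related importer of very long-chain acyl-CoA (chromosome 15, 91145871 to 91191807, minus strand), fell. It was at 9.66 to 38.8 CPM (median 19.6) in WT saline and 5.2 to 18.3 CPM (median 7.31) in WT L-AC, where replicate 3 was the high liver. KO saline gave 28.6, 33.0, 28.0, 32.7 and 28.7 CPM and KO L-AC 8.32, 14.8, 11.4, 12.6 and 2.13 CPM, with no overlap, whereas the WT groups overlapped. The fall was 2.47-fold in WT (log2 change -1.30 ± 0.35 SE with adjusted p = 0.00385) and 3.07-fold in KO (-1.62 ± 0.40 with adjusted p = 0.00206). Per kilobase of exon, Abcd3 stood at 222 ± 31.7 CPM per kb and Abcd2 at 3.87 ± 1.77 (mean ± SD, n = 7) in WT saline.

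Pxmp4, a small membrane protein of unsettled function, rose in both genotypes (log2 change 0.87 ± 0.16 SE with adjusted p = 9.02e-05 in WT, and 0.75 ± 0.18 with adjusted p = 0.00161 in KO), from 145 ± 23.7 CPM (SD, n = 7) to 264 ± 62.8 CPM (SD, n = 6) in WT. The KO L-AC livers were 146 to 320.3 CPM and overlapped the KO saline livers at 119 to 162. Pxmp2, a channel of the same membrane, was lower in WT (log2 change -0.61 ± 0.15 SE with adjusted p = 0.00226) and not called in KO (-0.33 ± 0.17 with adjusted p = 0.127). The same held for Mpv17, of the Pxmp2 family and listed here although placed in mitochondria (-0.32 ± 0.13 with adjusted p = 0.0376 in WT, and -0.24 ± 0.14 with adjusted p = 0.182 in KO). It also held for Slc25a17, a carrier of coenzyme A and other cofactors (-0.29 ± 0.12 with adjusted p = 0.0489 in WT, and -0.15 ± 0.14 with adjusted p = 0.408 in KO). The groups overlapped for all 3 genes in WT, and the calls of Mpv17 and Slc25a17 were lost in 11 and 20 of the 34 alternative settings. The responses of the genotypes were not shown to differ: the difference was 0.28 for Pxmp2 (95% interval -0.20 to 0.76), 0.09 for Mpv17 (-0.31 to 0.49) and 0.15 for Slc25a17 (-0.24 to 0.54).

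Of the 3 enzymes grouped here as accessory to beta-oxidation, Eci2 rose and Pecr fell in each genotype. Pecr, the peroxisomal enoyl-CoA reductase, which runs toward saturation and chain elongation (chromosome 1, 72259173 to 72284314, minus strand), was at 110.4 to 205 CPM (median 161) in WT saline and 27.0 to 62.5 CPM (median 39.5) in WT L-AC. The KO saline livers had 136, 185, 125, 125 and 192 CPM and the KO L-AC livers 27.6, 52.1, 45.4, 63.0 and 36.4 CPM. No treated liver reached the untreated range, and Pecr was 3.81-fold lower in WT (log2 change -1.93 ± 0.20 SE with adjusted p = 6.09e-08) and 3.40-fold lower in KO (-1.77 ± 0.22 with adjusted p = 1.24e-06). Eci2, an isomerase that lets unsaturated fatty acids enter the pathway, rose by 0.58 ± 0.080 SE in WT and 0.57 ± 0.091 in KO with no overlap, from 363 ± 38.2 CPM (SD, n = 7) to 543 ± 41.0 CPM (SD, n = 6) in WT. Ech1, an isomerase for dienes in the same work, gave 0.07 in WT (95% interval -0.15 to 0.28) and 0.10 in KO (-0.15 to 0.34), and neither passed the test.

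The enzymes of alpha-oxidation, which shortens phytanic and other branched acids by a single carbon, moved in opposite directions. Phyh, the first enzyme (chromosome 2, 4918996 to 4938743, plus strand), was at 1414 to 1953 CPM (median 1786) in WT saline and 1108 to 1350 CPM (median 1269) in WT L-AC. KO livers had 1813, 1872, 1401, 1606 and 1664 CPM on saline and 1066, 1281, 1137, 1325 and 1158 CPM on L-AC. Phyh was lower in every treated liver, 1.41-fold in WT (log2 change -0.49 ± 0.090 SE with adjusted p = 8.40e-05) and 1.4-fold in KO (-0.49 ± 0.10 with adjusted p = 4.38e-04). Hacl1, the lyase of the next step (chromosome 14, 31607226 to 31640965, minus strand), was at 358 to 482 CPM (median 371) in WT saline and 452 to 1543 CPM (median 884) in WT L-AC. KO saline gave 416, 382, 523, 382 and 467 CPM and KO L-AC 1399, 456, 798, 683 and 919 CPM. A single liver in each L-AC group lay within the saline range, and the others were above it. The rise was 2.26-fold in WT (log2 change 1.18 ± 0.23 SE with adjusted p = 1.44e-04) and 1.96-fold in KO (0.97 ± 0.26 with adjusted p = 0.00342).

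Of the coenzyme A hydrolases, which split free coenzyme A or its esters inside the organelle, Nudt19 rose and Nudt7 did not pass the test. Nudt19 (chromosome 7, 35547185 to 35555928, minus strand) was at 35.8 to 46.5 CPM (median 39.3) in WT saline and 47.9 to 62.8 CPM (median 58.7) in WT L-AC. KO livers had 44.9, 53.0, 40.3, 38.7 and 44.3 CPM on saline and 54.5, 54.1, 50.3, 60.9 and 71.3 CPM on L-AC, where a single saline liver lay inside the treated range. The log2 fold changes were 0.51 ± 0.088 SE in WT (adjusted p = 5.19e-05) and 0.40 ± 0.10 in KO (adjusted p = 0.00244). Nudt7 varied widely within every group, with 119 to 462 CPM on saline and 100.3 to 287 CPM on L-AC in WT, and 108 to 268 and 124 to 332 CPM in KO. Its fold changes carried intervals of -1.22 to 0.17 in WT and -0.50 to 1.07 in KO on the log2 scale.

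**Figure D3:**
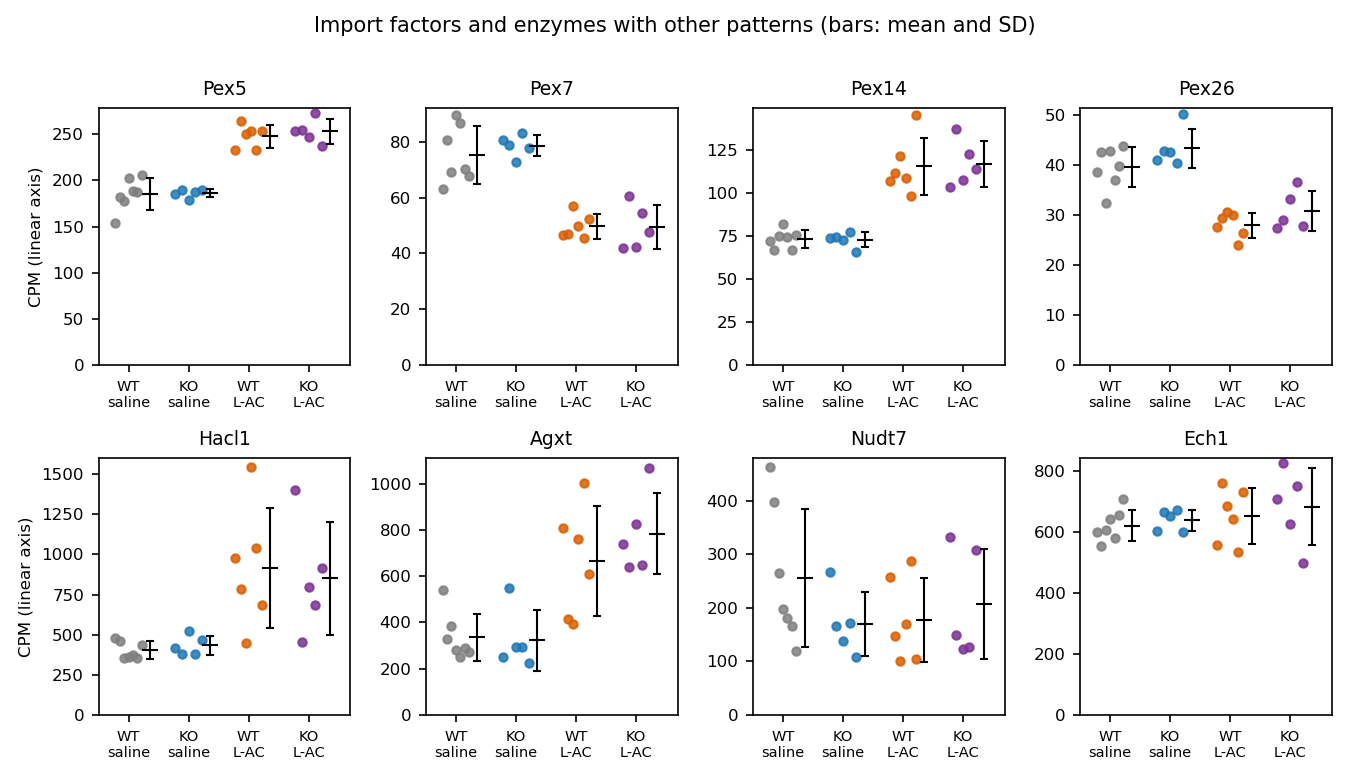
Level in CPM (vertical axes, linear from 0) of 8 further members in each library, with the mean and SD of the 4 groups. Pex5 and Pex14 rise and Pex7 and Pex26 fall with no overlap, Hacl1 and Agxt spread widely under L-AC, and Nudt7 and Ech1 overlap between treatments.

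Catalase fell. Cat, which breaks down the hydrogen peroxide of peroxisomal oxidases (chromosome 2, 103453904 to 103485153, minus strand), was at 2075 to 3482 CPM (median 2938) in WT saline and 1067 to 1760 CPM (median 1431) in WT L-AC. The KO saline livers had 2929, 2833, 2868, 2781 and 3557 CPM and the KO L-AC livers 1372, 1593, 1444, 1717 and 1040 CPM. All 11 treated livers lay below the untreated livers of their genotype, a fall of 2.07-fold in WT (log2 change -1.05 ± 0.14 SE with adjusted p = 1.21e-06) and 2.09-fold in KO (-1.06 ± 0.15 with adjusted p = 5.95e-06). Lonp2, the protease that removes damaged matrix proteins, was not called (0.12 in WT with a 95% interval of -0.10 to 0.33, and 0.15 in KO with -0.09 to 0.40).

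Glyoxylate handling held the largest fall. Hao1, the oxidase that turns glycolate into glyoxylate with release of hydrogen peroxide (chromosome 2, 134497361 to 134554352, minus strand), was at 153 to 252 CPM (median 208) in WT saline and 24.7 to 63.4 CPM (median 32.5) in WT L-AC. KO livers had 195, 201, 168, 195 and 185 CPM on saline and 14.1, 57.0, 35.5, 43.3 and 48.4 CPM on L-AC. The highest treated liver, WT L-AC replicate 3, was still far below the lowest untreated WT liver. Hao1 fell 5.89-fold in WT (log2 change -2.56 ± 0.24 SE with adjusted p = 1.57e-08) and 4.76-fold in KO (-2.25 ± 0.27 with adjusted p = 5.43e-07). Agxt, the aminotransferase that removes glyoxylate by making glycine (chromosome 1, 93135240 to 93145421, plus strand), rose instead. Its level was 251 to 539 CPM (median 288) in WT saline and 392 to 1003 CPM (median 684) in WT L-AC. KO saline gave 252, 550, 293, 295 and 224 CPM and KO L-AC 737, 639, 826, 649 and 1068 CPM. The KO groups stood apart, while in WT the high saline liver, replicate 1, lay inside the treated range. The rise was 1.98-fold in WT (log2 change 0.99 ± 0.23 SE with adjusted p = 0.0012) and 2.43-fold in KO (1.28 ± 0.27 with adjusted p = 4.72e-04). Pipox, an oxidase of pipecolate and sarcosine (chromosome 11, 77880615 to 77893872, minus strand), was at 171 to 259 CPM (median 239) in WT saline and 70.3 to 106 CPM (median 83.2) in WT L-AC. The KO livers were at 227, 263, 235, 259.6 and 254 CPM on saline and 66.0, 73.7, 72.6, 96.3 and 78.2 CPM on L-AC. With no overlap in either genotype, Pipox fell 2.58-fold in WT (log2 change -1.37 ± 0.12 SE with adjusted p = 3.41e-09) and 3.20-fold in KO (-1.68 ± 0.13 with adjusted p = 1.77e-09).

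Ether lipid synthesis begins in peroxisomes, and of its 3 members 2 were higher in WT, and 1 higher and 1 lower in KO. Agps, which makes the ether bond (chromosome 2, 75832177 to 75931350, plus strand), was at 11.0 to 18.4 CPM (median 12.1) in WT saline and 16.2 to 24.6 CPM (median 18.3) in WT L-AC. KO livers had 14.1, 13.6, 13.6, 13.9 and 12.9 CPM on saline and 17.2, 16.9, 18.9, 18.1 and 23.2 CPM on L-AC. The KO groups stood apart and the WT groups overlapped through saline replicate 1, with rises of 1.48-fold in WT (log2 change 0.57 ± 0.12 SE with adjusted p = 3.27e-04) and 1.39-fold in KO (0.47 ± 0.14 with adjusted p = 0.00618). Gnpat, the acyltransferase of the preceding step, was higher in WT by 0.16 ± 0.061 SE (adjusted p = 0.0282) and not called in KO at 0.12 ± 0.070 (adjusted p = 0.158). Its WT call was lost without WT saline replicate 2, 3 or 6 or without WT L-AC replicate 4 or 6 (adjusted p = 0.0530 to 0.0721). Far1, which supplies the fatty alcohol, was the least abundant member, at 2.13 ± 0.376 CPM (SD, n = 7) in WT saline. It was lower in KO (log2 change -0.56 ± 0.19 SE with adjusted p = 0.0207), a call that rests on KO L-AC replicate 3 (adjusted p = 0.0606 when it is left out), and was not called in WT (-0.34 ± 0.17 with adjusted p = 0.0876). Without WT L-AC replicate 3, Far1 was also called in WT (adjusted p = 0.0175).

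Levels of the members span a wide range once divided by exon length. In WT saline, Phyh (1192 ± 125 CPM per kb, SD, n = 7) and Cat (1133 ± 171) were highest and did not differ beyond their spread, and Ech1 followed at 546 ± 45.3. Eci2 (225 ± 23.7), Abcd3 (222 ± 31.7) and Agxt (216 ± 64.5) came next and could not be told from one another. At the bottom stood Abcd2 (3.87 ± 1.77) and Pex10 (3.55 ± 0.312), which overlapped, then Agps (1.79 ± 0.355) and Far1 (0.472 ± 0.0834), each below the gene before it by more than the spread. Under L-AC the order changed near the top: Phyh (846 ± 64.8, n = 6) was followed by Ech1 (573 ± 81.0), Cat (548 ± 101) and Abcd3 (507 ± 69.7), which overlapped within their spread, and Pex11a reached 431 ± 34.0. KO livers gave close values, with Phyh at 1134 ± 126 and Cat at 1173 ± 125 (n = 5) on saline.

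**Figure D4:**
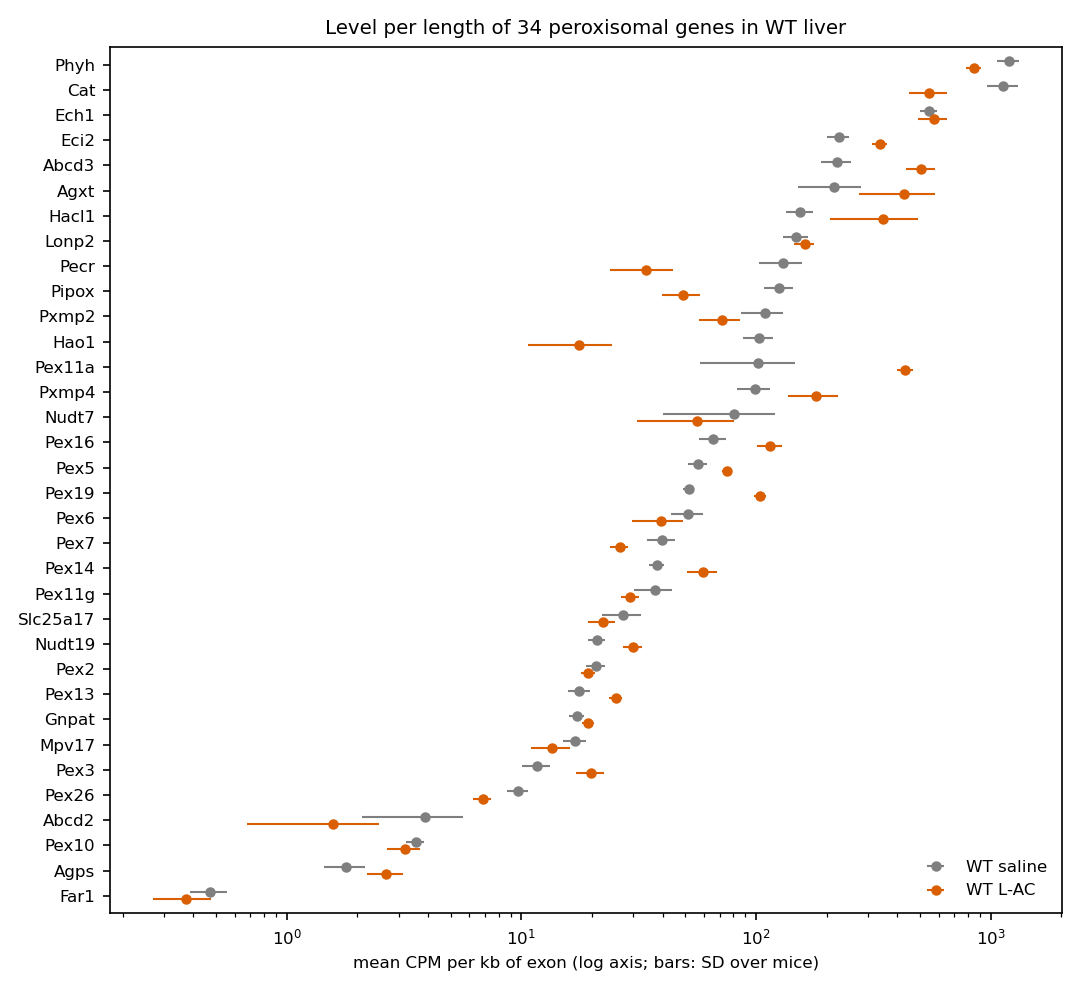
Mean level in CPM per kilobase of exon (log axis) of the 34 genes in WT saline (grey, n = 7) and WT L-AC (orange, n = 6), ordered by the saline level, with SD over mice as bars. Pex11a moves from 102 to 431 and Hao1 from 103 to 17.5 CPM per kb, while Ech1 and Lonp2 stay within their bars.

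The sum over the 34 genes stayed close between groups while its makeup shifted. Summed levels were 9953 ± 636 CPM in WT saline (SD, n = 7), 10190 ± 595 in WT L-AC (n = 6), 9904 ± 374 in KO saline (n = 5) and 10280 ± 321 in KO L-AC (n = 5), about 1% of all reads. Cat made up 28.9% of that sum in WT saline and 13.8% in WT L-AC, and 30.2% and 14.0% in KO. Phyh went from 17.6% to 12.2% in WT. Abcd3 took the opposite course, from 7.56% to 16.9% in WT and from 7.66% to 16.7% in KO. Hacl1 went from 4.09% to 8.87% in WT. These shares are descriptions of levels that follow from the changes above.

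Between genotypes, no member passed the test. KO against WT gave 0 of 34 calls under saline and 0 of 34 under L-AC (edgeR), beside 0.0141% of all genes in each comparison, and DESeq2 and limma-voom also called 0. At an unadjusted p under 0.05 there was 1 member under saline, Pex11g (log2 fold change -0.28 ± 0.12 SE, unadjusted p = 0.028, adjusted p = 1), and 0 under L-AC. The intervals limit how large a difference could have gone unseen. Under saline, 25 of the 34 intervals of 95% lay within 0.5 of no change on the log2 scale and 32 within 1. The exceptions at 1 were Abcd2 (-0.24 to 1.23) and Nudt7 (-1.32 to 0.15). Under L-AC, 26 lay within 0.5 and 34 within 1. For the 5 members with the largest changes in each genotype, the difference of KO against WT under L-AC was 0.00 for Pex11a (-0.48 to 0.48), 0.16 for Hao1 (-0.35 to 0.67), 0.15 for Pecr (-0.28 to 0.58), -0.16 for Pipox (-0.42 to 0.09) and 0.18 for Abcd2 (-0.62 to 0.97).

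**Figure D5:**
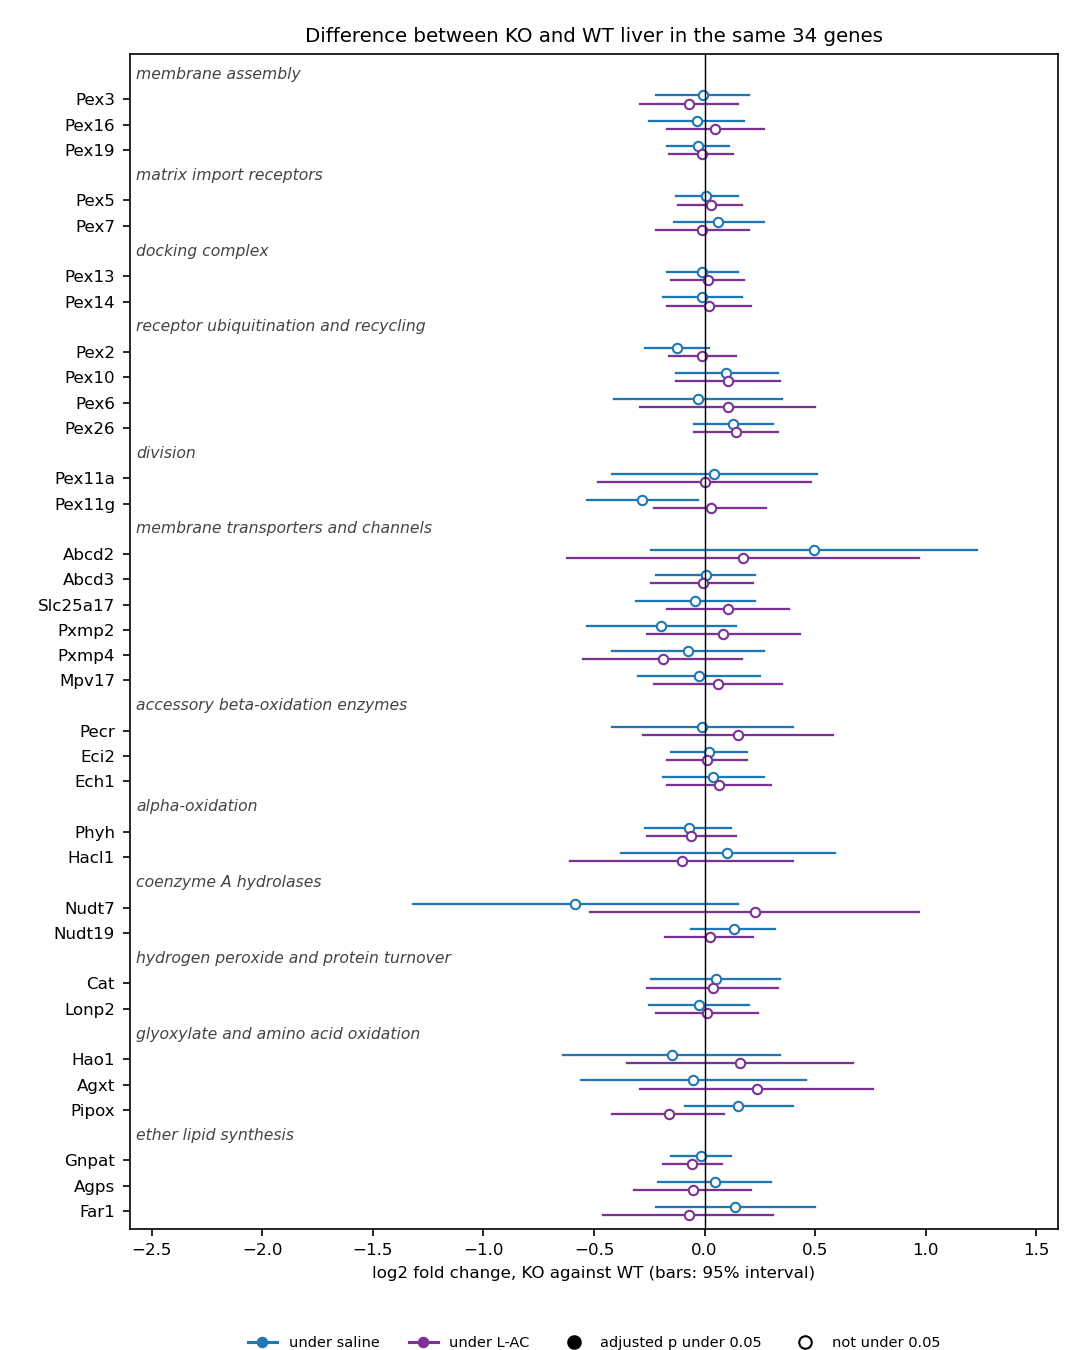
Log2 fold change between KO and WT (horizontal axis) for the 34 genes under saline (blue, 5 against 7 mice) and under L-AC (purple, 5 against 6 mice), with 95% intervals as bars. All points are open, since none has an adjusted p under 0.05, and the widest bars belong to Abcd2 and Nudt7.

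The difference between the genotypes in the response to L-AC was tested as an interaction. It was called for 0 of 34 members and 0% of all genes by edgeR, and DESeq2 and limma-voom also called 0 members. None had an unadjusted p under 0.05, and the lowest belonged to Pipox (-0.31, 95% interval -0.67 to 0.04, unadjusted p = 0.0809, adjusted p = 0.9999) and Pex11g (unadjusted p = 0.086). Intervals of 20 members lay within 0.5 of no difference and those of 30 within 1. The 4 that reached farther were Abcd2, Nudt7, Hao1 and Agxt, and Nudt7 had the widest reach upward (0.81, -0.23 to 1.86).

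Other genes of the same pathways were taken as whole lists. Their counts, here and in the next paragraph, stand beside 26.6% of all tested genes higher and 26.7% lower in WT. In KO those shares were 25.2% and 23.6%, and no list was tested against them. Division and tethering had 2 of 6 higher and 2 lower in WT, and 2 higher and 1 lower in KO, with the fission adaptor Mff at 0.56 ± 0.092 in WT and 0.57 ± 0.11 in KO and the tether Acbd5 at -0.90 ± 0.14 in WT and -0.99 ± 0.16 in KO. Core beta-oxidation had 9 of 17 higher and 2 lower in WT (median 0.38) and 10 higher and 3 lower in KO (median 0.44), beside medians of -0.01 over all genes. It included Crat, which makes acylcarnitines for export (1.68 ± 0.15 in WT and 1.48 ± 0.17 in KO). Known PPARA targets outside the peroxisome had 22 of 25 higher and 0 lower in WT (median 0.85) and 21 higher and 0 lower in KO (median 0.88). Pdk4, which restrains pyruvate oxidation (5.46 ± 0.37 in WT and 5.57 ± 0.44 in KO), and the lipid droplet coat gene Plin2 (2.54 ± 0.13 in WT and 2.68 ± 0.15 in KO) were among them.

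Lists closer to the members that fell went both ways. Among glyoxylate partners outside the peroxisome 2 of 9 were higher and 5 lower in WT, and 1 higher and 5 lower in KO, with Prodh2, a dehydrogenase of hydroxyproline breakdown that feeds glyoxylate, at -1.44 ± 0.13 in WT and -1.48 ± 0.14 in KO and Hoga1, which releases glyoxylate, at -1.28 ± 0.15 in WT and -1.47 ± 0.17 in KO. Enzymes of peroxide removal and antioxidant defence had 3 of 15 higher and 8 lower in WT, and 4 higher and 7 lower in KO. Gpx1, a glutathione peroxidase, was at -0.63 ± 0.10 in WT and -0.74 ± 0.12 in KO, and Srxn1, which repairs oxidised peroxiredoxins, at 2.07 ± 0.23 in WT and 2.68 ± 0.27 in KO. Other peroxisomal enzymes had 6 of 19 higher and 6 lower in WT and 5 higher and 3 lower in KO, with Mlycd, malonyl-CoA decarboxylase, at 0.81 ± 0.081 in WT and 0.92 ± 0.093 in KO. Later ether lipid synthesis had 2 of 7 higher and 3 lower in each genotype, with Tmem189, the desaturase that completes plasmalogens, at 2.71 ± 0.22 in WT and 2.77 ± 0.26 in KO. Regulators of peroxisomal genes had 3 of 12 higher and 5 lower in WT and 2 higher and 6 lower in KO, with the carbohydrate response factor Mlxipl at -1.66 ± 0.14 in WT and -1.84 ± 0.16 in KO and the coactivator Ppargc1b at 1.14 ± 0.25 in WT and 1.06 ± 0.29 in KO.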

How the data were processed

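Liver polyA RNA was sequenced as single-end reads, per the labels' protocols. The deposited values are raw read counts per gene, made by the authors with featureCounts 1.4.4 over exons grouped by gene, ignoring strand and letting a read count for each of several overlapping genes, as the file headers record, after alignment with STAR 2.4.0 to mm10, per the submitters' processing notes. Genes were kept by filterByExpr (minimum count 10, minimum total 15), scaled by TMM and fitted over all 23 libraries, with 1 mean per group and no covariate, by the quasi-likelihood test of edgeR 4.0.16 in R 4.3.3, with Benjamini-Hochberg adjustment over 14196 genes and two-sided p-values. SE is the size of a log2 fold change over the square root of F. CPM use TMM-scaled library sizes. Of 186 symbols in the other pathway and marker lists, 180 matched by name and 4 by a synonym. The members and lists were chosen with earlier results of these data known. Members with values per library are the 8 called with the largest change in each L-AC comparison and the member with the smallest p for each role. From each pathway list, up to 3 called genes with the smallest p in WT could be named. Alternatives used DESeq2 1.42.0 and limma 3.58.1 (voom), and the fits were tested on simulated data. Labels give no batch or pairing. Targeting signals in protein sequences were not analysed here. Replicates are numbered in accession order, which pairs no animals. Some genes of the pathway lists are not reported here.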

Additional observations from a re-analysis of the deposited data

Results flagged for a closer look

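The 34 members and Ehhadh gave 140 sets of libraries of 1 gene in 1 group. In 13 of the 140 the highest or lowest library stood apart from the rest by Dixon's criterion at 95%. That criterion flags about 1 in 20 independent sets by chance. The 13 of 140 is a larger share, but these sets share libraries and are not independent. KO saline held 7 of the 13, WT L-AC 4, WT saline 1 and KO L-AC 1. In KO saline, replicate 1 was low for Pex3 (23.3 CPM), replicate 2 was high for Pxmp2 (131.7 CPM) and Agxt (550 CPM), replicate 3 was high for Abcd3 (866.2 CPM) and Ehhadh (252.9 CPM), and replicate 5 was high for Pex26 (50.08 CPM) and Cat (3557 CPM). In WT L-AC, replicate 3 was high for Abcd2 (18.34 CPM), Pecr (62.54 CPM) and Hao1 (63.35 CPM), 3 genes that fell with L-AC, and replicate 1 was high for Pxmp4 (388.2 CPM). WT saline replicate 7 was high for Pex6 (217.3 CPM), and KO L-AC replicate 5 was high for Abcd3 (2018 CPM).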

How the results depend on the processing

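The number of members called stayed within 23 to 28 in WT and 22 to 23 in KO over 34 alternatives (other tests, scalings and filters, age in the model, the compared groups fitted alone, a threshold of 0.01, each library left out, and a pair left out), and 0 members were called between genotypes. For the difference in response, 0 were called over 33 alternatives, since fitting the compared groups alone does not apply to it. The pair, WT saline replicate 1 and WT L-AC replicate 3, was chosen after seeing the data, and without it 26 members were called in WT. Leaving out each replicate in turn gave 24 to 28 members in WT and 22 to 23 in KO. Genes of the other pathway lists called were 64 to 84 in WT (82 of 113 as reported, beside 53.3% of all genes) and 66 to 78 in KO (77 of 113, beside 48.8%). No called member reversed. Counting each member under each alternative separately, a call was lost 39 times in WT and 3 times in KO, and gained 10 times and 1 time. The calls of Slc25a17 (adjusted p to 0.121 without WT L-AC replicate 1), Mpv17 (to 0.106 without the same library), Gnpat, Pex11g and Far1 are those lost. Pex6 was gained in WT in 6 alternatives, among them without KO L-AC replicate 5 (adjusted p = 0.0146), and Pex2 without WT saline replicate 7 (adjusted p = 0.0461). Over all genes, KO against WT had 2 calls under each treatment by edgeR, 7 under saline and 15 under L-AC by DESeq2, and 5 under L-AC when only those groups were fitted. No paired analysis was possible because the labels carry no replicate numbers shared between groups. Depth limits the precision of Far1, with 35 to 104 reads per library, and of Abcd2 in KO L-AC replicate 5, with 69.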

Other observations

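Variation within a group differed between members. Abcd2 under L-AC (coefficient of variation 57.3% in WT and 49.8% in KO) and Nudt7 in WT saline (50.2%) and KO L-AC (49.5%) varied most, while Pex19 had 5.48% in WT saline and 6.26% in WT L-AC. In KO saline, Abcd2 and Pex11a were tighter than in WT saline, at 8.09% and 8.14%, and this difference in spread was not tested.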
